A study of Rattus norvegicus and Heterocephalus glaber with 6 samples.

Results

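The genes described here make urea and handle ammonia in liver: Cps1, Otc, Ass1, Asl, Arg1, Nags, Slc25a15, Glul, Gls2 and Glud1. They were picked by symbol from their known roles, with earlier results of these data known but no value in the rule, and all 10 had a row in at least 1 of the deposited tables: 9 among the 22517 symbols of the rat tables (all but Glul) and 2, GLUL and GLUD1, among the 567 symbols of the naked mole rat tables. Liver polyadenylated RNA came from rats (Rattus norvegicus) and from naked mole rats, a burrowing rodent that lives in low oxygen. Both groups had been kept at 8% oxygen for 8 hours, with 3 libraries per species, and no untreated library was used here, so no effect of oxygen could be tested. Strain, age and sex are not stated in the labels, and neither is whether each library came from its own animal. SDs therefore describe how far these samples differ among themselves, in part perhaps for technical reasons. The p-values set the difference between species against that spread and need not hold beyond these samples. A lower level in whole liver can mean fewer cells of a type or less RNA per cell, and these cannot be told apart.

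The urea cycle turns toxic ammonia into urea for excretion. Cps1 and Otc act in the mitochondrial matrix of hepatocytes, Ass1, Asl and Arg1 in the cytosol, and the carrier Slc25a15 moves ornithine and citrulline between the compartments. Nags makes N-acetylglutamate, without which Cps1 is inactive. Gls2, the liver glutaminase, and Glud1, glutamate dehydrogenase, release ammonia in mitochondria, and Glul, glutamine synthetase, binds what escapes the cycle. In rodents the cycle enzymes and Gls2 lie mainly in periportal hepatocytes and Glul in a narrow rim around the central vein.

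The promoter sequences of 3 cycle genes, Cps1, Otc and Asl, are shown as examples. Each is the 250 bases before the gene's start in RefSeq, build GRCr8, on the gene's strand, and capitals mark the matches of 1 motif. For Cps1, at chr9:76063613-76063862 on the plus strand, they mark CAAAG, found in the HNF4 type of site. For Otc, at chrX:15202474-15202723 on the minus strand, they mark TTNNGNAA, a loose form of the C/EBP site. For Asl, at chr12:32295658-32295907 on the plus strand, they mark ACGTG, the core bound by hypoxia-inducible factors.
Cps1: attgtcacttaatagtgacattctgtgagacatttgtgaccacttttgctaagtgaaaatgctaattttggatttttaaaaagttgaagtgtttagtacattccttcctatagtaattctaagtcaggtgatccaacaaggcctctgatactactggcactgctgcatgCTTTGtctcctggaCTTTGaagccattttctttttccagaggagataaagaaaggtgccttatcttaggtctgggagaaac
Otc: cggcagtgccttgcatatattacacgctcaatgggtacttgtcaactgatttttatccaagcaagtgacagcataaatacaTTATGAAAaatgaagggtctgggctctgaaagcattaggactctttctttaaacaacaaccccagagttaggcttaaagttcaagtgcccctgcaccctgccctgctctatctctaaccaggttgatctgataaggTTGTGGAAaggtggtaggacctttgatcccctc
Asl: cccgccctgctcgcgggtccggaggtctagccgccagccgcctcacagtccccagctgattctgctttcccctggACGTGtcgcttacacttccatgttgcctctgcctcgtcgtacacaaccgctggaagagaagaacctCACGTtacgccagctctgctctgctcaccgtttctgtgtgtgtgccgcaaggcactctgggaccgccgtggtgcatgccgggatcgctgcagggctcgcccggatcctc

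Matches on either strand were counted, so a printed CTTTG is CAAAG and a printed CACGT is ACGTG on the other strand. The Cps1 window held CAAAG 2 times, starting 81 and 67 bases before the start, the Otc window TTNNGNAA 2 times, at 169 and 33 bases, and the Asl window ACGTG 2 times, at 175 and 109 bases. Over all 33469 windows of the same length, 48.2% held CAAAG, 37.2% TTNNGNAA and 16.6% ACGTG. These shares are for 1 or more matches, not for the 2 found in each window shown. The other motifs searched were CACGTG, which contains ACGTG and was in 5.59% of windows, TGACG (18.2%) and TATAAA (12.9%). Of the 10 genes 9 had a window, and Gls2 and Glul had 2 each, 11 in all. ACGTG was in the Asl window alone of these, TGACG in 1 Gls2 window (2 matches), TATAAA in that of Ass1, TTNNGNAA in those of Otc and Slc25a15, and CAAAG in those of Cps1, Otc and 1 of Glul. None of the 6 motifs was in the windows of Nags and Glud1 or in the second windows of Gls2 and Glul. The motif marked differs between the 3 genes shown, and the Ass1 window held none of the 3 marked motifs. A match is a run of letters, not a bound site, and most of these motifs are common in windows of this length. No link between the motifs and the levels or ratios of the genes was tested.

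The rat libraries held 22549 rows each, with FPKM totals without albumin of 531212, 527133 and 531399 in rats 1, 2 and 3. With albumin, which was usable in rat 3 alone, the total of rat 3 was 557187. FPKM is a fragment count scaled by transcript length and by the mapped fragments of the library. In naked mole rat the tables had 734 rows and totals of 17543 to 21793 FPKM. How many reads lie behind a value is unknown. Among the rat markers, 6 of 7 hepatocyte genes had a row, all at 100 FPKM or more, although albumin had a usable value in rat 3 alone. Of 8 macrophage or Kupffer cell markers 7 had a row, with summed levels of 132, 143 and 175 FPKM over rats 1, 2 and 3. Marco was listed at 0, but its row lies on a sequence not placed on a chromosome, so this value need not mean absence. Sinusoidal endothelial markers (5 of 6 with a row) summed to 58.2, 53.3 and 51.2 FPKM, stellate or fibroblast markers (5 of 6) to 28.1, 19.5 and 29.6, and cholangiocyte markers (3 of 4) to 11.6, 12.8 and 16.3. Of the erythroid markers 2 of 5 had a row, led by the globin Hbb at 54.4, 357 and 348 FPKM. The part of these cells in the differences between rats was not tested. Markers of kidney and gut, organs that also use part of this pathway, were all under 1 FPKM on average except Fabp2, at 3.44, 3.06 and 7.80; Umod, Slc34a1 and Alpi were listed at 0.

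**Figure D1:**
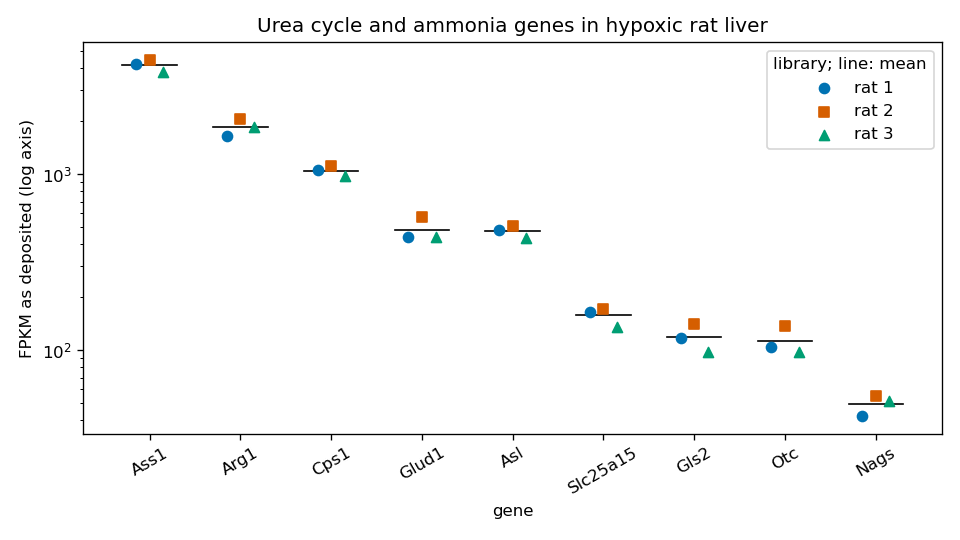
FPKM as deposited (log axis) of the 9 genes with a rat row, with a point per rat library and a line at the mean of 3. Levels run from 49.7 FPKM for Nags to 4181 for Ass1, and the square of rat 2 is the highest point for each gene.

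Ass1 and Arg1, both cytosolic, were the most abundant of these transcripts, whereas the cytosolic Asl lay below Cps1 and Glud1 on average. Ass1, argininosuccinate synthetase, which joins citrulline and aspartate, stood at 4243, 4458 and 3843 FPKM in rats 1, 2 and 3, a mean of 4181 ± 312 (SD, n = 3). It ranked 18th, 13th and 20th among the rows of the 3 libraries and held 0.789% of the FPKM total without albumin. Its row lies on chromosome 3 from 10578716 to 10622332 in the deposited table, whose build the labels do not name. Arg1, arginase, which splits arginine into urea and ornithine, followed at 1660, 2054 and 1854 FPKM, or 1856 ± 197 (SD, n = 3), on chromosome 1 from 20998893 to 21011275. Here rat 1 was the lowest library, whereas rat 3 was the lowest for Ass1. Asl, argininosuccinate lyase, which acts between these enzymes, was lower, at 480, 511 and 436 FPKM, or 476 ± 38.0 (SD, n = 3), on chromosome 12 from 27702881 to 27720230. The order of the Asl values over the rats was that of Ass1, rat 2 above rat 1 above rat 3.

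The mitochondrial enzymes differed widely from each other. Cps1, carbamoyl phosphate synthetase, the entry step that takes up free ammonia, was at 1054, 1114 and 980 FPKM, or 1049 ± 67.4 (SD, n = 3), and ranked 66th, 61st and 73rd among the rows. Its row, on chromosome 9 from 65907210 to 66017942, was the longest of the 9 at 110732 bp. Otc, ornithine transcarbamylase, which uses the product of Cps1 to make citrulline, was at 105, 137 and 98.1 FPKM, or 113 ± 20.7 (SD, n = 3), on chromosome X from 24609140 to 24685341. Cps1 exceeded Otc in every rat, by 10.04, 8.14 and 9.98 times, a mean ratio of 9.39 ± 1.08 (SD, n = 3). The 5 cycle enzymes together summed to 7541, 8275 and 7210 FPKM, or 1.42%, 1.57% and 1.36% of the total without albumin.

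Nags and Slc25a15 serve the cycle without being among its 5 enzymes. Nags was the lowest of the 9 genes, at 42.5, 55.3 and 51.4 FPKM, or 49.7 ± 6.57 (SD, n = 3), on chromosome 10 from 91211489 to 91215624, and Cps1 stood 24.8, 20.2 and 19.1 times above it. Slc25a15 was at 166, 173 and 135 FPKM, or 158 ± 19.9 (SD, n = 3), on chromosome 16 from 74280826 to 74301105. Its rat 3 value lay below the other two, which were close to each other, and it was above Otc in each rat.

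Of the genes that release ammonia, Glud1 was at 439, 576 and 441 FPKM, or 486 ± 78.6 (SD, n = 3), on chromosome 16 from 9965717 to 9999254. Rat 2 stood apart and the other libraries were nearly equal. Gls2 was at 118, 140 and 98.1 FPKM, or 119 ± 21.2 (SD, n = 3), on chromosome 7 from 1484396 to 1495283, with 3 separate levels. Paralogs of 2 other members were low: Arg2, the mitochondrial arginase, was at 0.119, 0.0415 and 0.0390 FPKM and Slc25a2, an ornithine carrier close to Slc25a15, at 0.536, 0.511 and 0.480. None of the 9 rat rows overlapped another row, and none carried a status other than OK.

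By mean level the order was Ass1, Arg1, Cps1, Glud1, Asl, Slc25a15, Gls2, Otc and Nags. Of the 8 neighbouring pairs in this order, 5 had libraries that did not overlap. The exceptions were Glud1 and Asl (ratio of means 1.02), Slc25a15 and Gls2 (1.33) and Gls2 and Otc (1.05). Slc25a15 was above Gls2 within each of the 3 libraries, although their ranges overlapped. Glud1 was above Asl in 2 of 3 libraries and Gls2 above Otc in 2 of 3, so these neighbours did not differ beyond their spread.

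**Figure D2:**
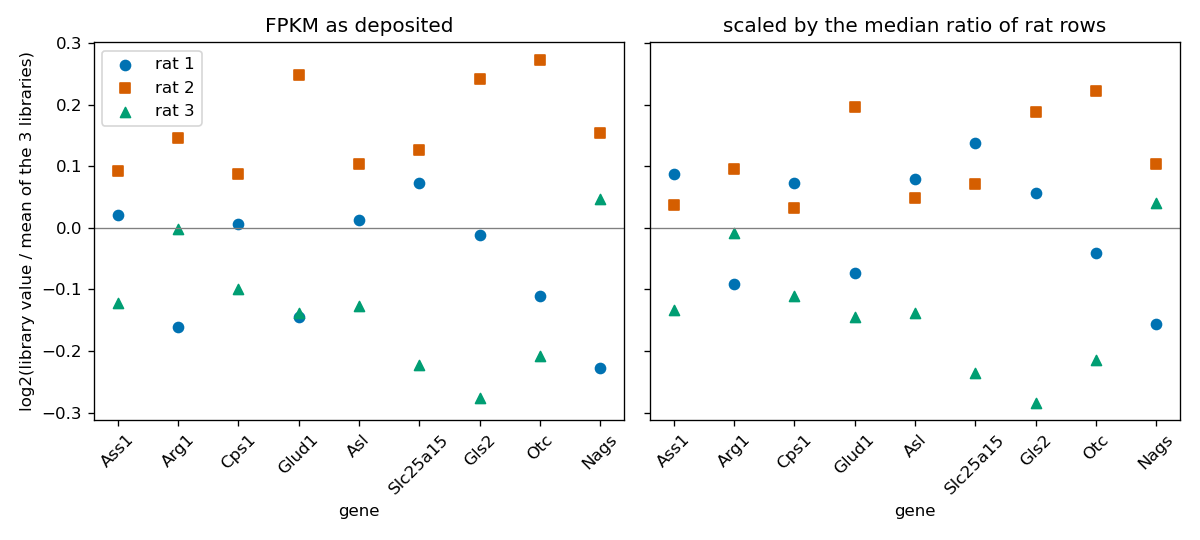
Each rat library's value as log2 of its ratio to the mean of the 3 libraries, for FPKM as deposited (left) and after scaling by the median ratio of rat rows (right). As deposited, rat 2 is on top for 9 of 9 genes; after scaling it is on top for 5, and rat 3 is never on top.

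None of the 9 genes varied more than 1.43-fold between the rats, and no single order of the rats held for all 9. Rat 2 was the highest library for 9 of 9 genes as deposited, where 45.1% of the 663 rat rows of at least 100 FPKM were highest in rat 2. That count depends on the scale of the libraries: after scaling by the median ratio over all rat rows (factors 0.957, 1.04 and 1.01) rat 2 was the highest for 5 of 9, Arg1, Nags, Glud1, Gls2 and Otc, against a background of 29.6%. Rat 1 was then the highest for the other 4, Cps1, Ass1, Asl and Slc25a15 (background 40.4%). Rat 3 was the lowest for 6 of 9 as deposited (background 32.7%) and for 7 of 9 after scaling (37.6%), all but Arg1 and Nags. Arg1 and Nags were lowest in rat 1 on both scales, and Glud1 as deposited.

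**Figure D3:**
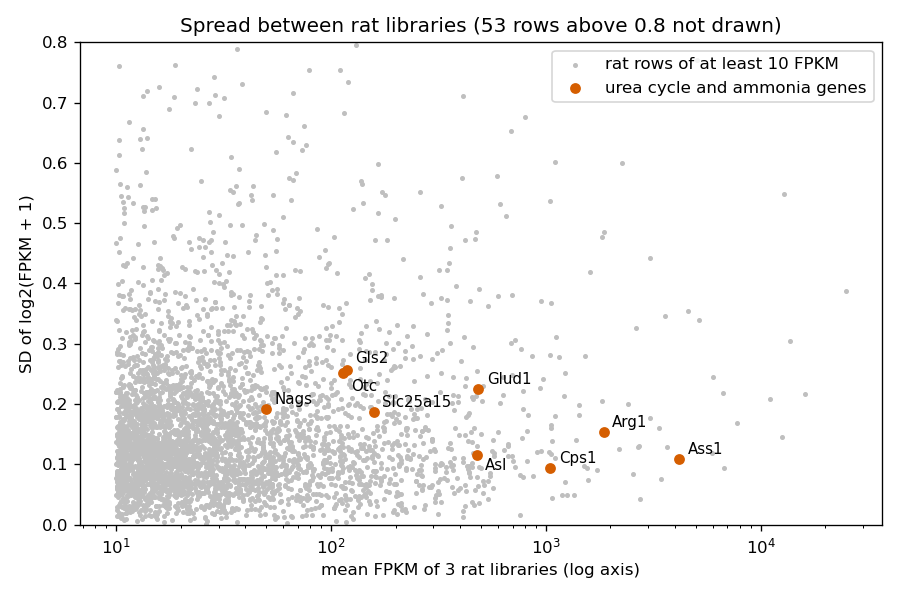
SD of log2(FPKM + 1) over the 3 rat libraries against mean FPKM (log axis), with 1 grey point per rat row of at least 10 FPKM and the 9 genes in colour. Cps1 lies lowest of the 9 at 0.09 and Gls2 highest at 0.26, and 53 of 3908 rows lie above the axis.

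The spread between the rats was smallest for Cps1, with an SD of log2(FPKM + 1) of 0.09, and Ass1, with 0.11, and Asl was near them at 0.12. Of the 90 rows within a factor of 2 of the Cps1 level, 17.8% had a smaller SD, and of the 27 around Ass1, 14.8%. Gls2, Otc and Glud1 varied most, with SDs of 0.26, 0.25 and 0.22, and 80.3%, 79.4% and 70.5% of the rows of like level had a smaller SD. Arg1, Slc25a15 and Nags lay between, at 0.15, 0.19 and 0.19. The largest ratio of the highest to the lowest library was 1.43, for Gls2, and the smallest was that of Cps1. The median SD of the 9 genes was 0.19 as deposited, against 0.14 for all rows of at least 100 FPKM, and 0.13 against 0.14 after median ratio scaling. As deposited, the median of the 9 was 0.16 without rat 1, 0.10 without rat 2 and 0.18 without rat 3. Such values for other rows are not given here.

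**Figure D4:**
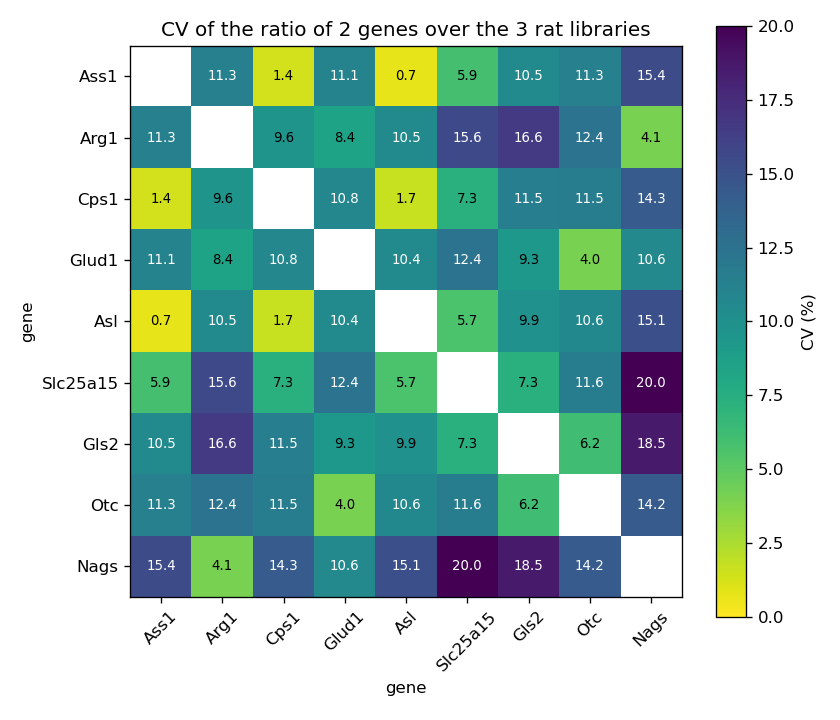
Coefficient of variation (CV, SD over mean, in percent) over the 3 rat libraries of the ratio of each pair of genes, as colour and number. The lowest values, 0.7% to 1.7%, are the pairs among Ass1, Asl and Cps1, and the highest, 20.01%, is Slc25a15 with Nags.

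A ratio of 2 genes within a library does not depend on how the library is scaled. Over the 36 pairs of the 9 genes, the CV of the ratio across the rats ran from 0.734% to 20.01%, with a median of 10.6%, against 15.8% over the 214185 pairs of other rows of at least 100 FPKM. Ass1, Asl and Cps1 kept nearly fixed proportions. Ass1 was 8.83, 8.72 and 8.82 times Asl in rats 1, 2 and 3, a CV of 0.734%, and 0.194% of the other pairs had a CV as low. Ass1 was 4.03 times Cps1 in rat 1 and 3.92 times in rat 3, with rat 2 between them (CV 1.36%, with 0.671% of other pairs as low), and Cps1 was 2.19, 2.18 and 2.25 times Asl (CV 1.66%, with 0.999% as low). These 3 pairs were picked out after the values were seen, as the lowest of 36, and are given as a description. With a library left out, the CV of Ass1 to Asl ran from 0.124% (without rat 2) to 0.957% (without rat 3). That of Ass1 to Cps1 ran from 0.471% (without rat 3) to 1.86% (without rat 2), and that of Cps1 to Asl from 0.486% (without rat 3) to 2.22% (without rat 1).

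The remaining cycle genes did not follow those proportions as closely. For Otc the steadiest ratio was that with Glud1, at a Glud1 to Otc ratio of 4.19, 4.21 and 4.49 (CV 4.01%, with 5.72% of other pairs as low). The ratio of Otc with Cps1, its neighbour in the pathway, was less steady (CV 11.5%). For Arg1 the steadiest ratio was that with Nags, at 39.1, 37.2 and 36.1 times the Nags level (CV 4.05%, with 5.84% as low). The CV of Ass1 to Arg1 was 11.3%. The pairs of Glud1 with Otc and of Arg1 with Nags were also picked after the values were seen, from the same 36. Nags, at a mean of 49.7 FPKM, lies below the 100 FPKM required of the rows in the other pairs. Slc25a15 was nearest to Asl and Ass1, with CVs of 5.70% and 5.90%, and farthest from Nags. With 3 libraries these values describe the libraries measured and no shared control can be read from them.

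The rows of at least 100 FPKM whose pattern over the 3 rat libraries lay closest to the mean of the 5 cycle enzymes were LOC100362384, Hsd17b10, Sfrs5, Rarres2 and Atox1. Likeness was the Euclidean distance on centred log2(FPKM + 1), at 0.010 to 0.016 for these rows. Such a pattern was common: 198 of 655 other rows (30.2%) were as near as Otc, the farthest of the cycle enzymes, at 0.17.

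Among related genes, those that supply amino groups and ammonia shared the low values of rat 3. Of 20 listed genes all had a row, 16 reached a mean of 1 FPKM and 11 reached 100. Of the 16, 13 were lowest in rat 3, as deposited and after median ratio scaling, where 27.9% and 34.8% of all rows of at least 10 FPKM were. Bhmt, which methylates homocysteine, was at 3984, 4120 and 2675 FPKM, Got1, the cytosolic aspartate aminotransferase, at 464, 590 and 458, and Tat, tyrosine aminotransferase, at 1023, 429 and 1221. Tat thus had its lowest value in rat 2, where the cycle enzymes had their highest as deposited. Gldc, of the glycine cleavage system, which frees ammonia, was at 52.6, 81.8 and 18.4 FPKM, its highest library 4.45 times its lowest. Agxt2 and Asrgl1 also varied at least 2-fold, at 62.6, 78.9 and 38.9 and at 10.4, 7.54 and 5.05 FPKM, both lowest in rat 3.

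**Figure D5:**
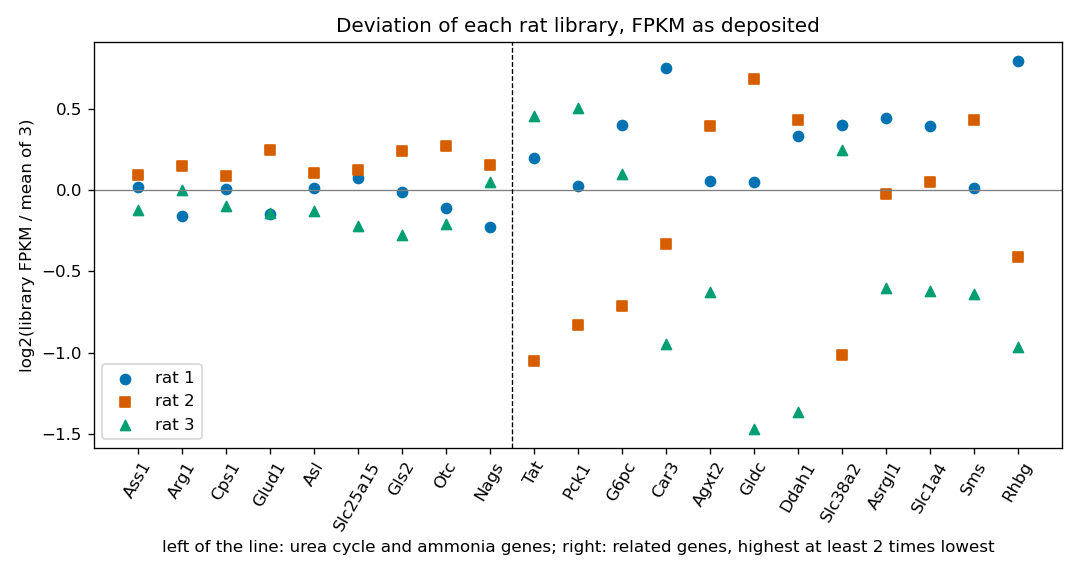
Log2 of each rat library's FPKM over the mean of the 3 libraries, for the 9 genes (left of the dashed line) and for the named related genes of at least 1 FPKM whose highest library was at least 2 times the lowest (right). The 9 genes stay between -0.28 and 0.27, while Tat, Pck1 and G6pc are lowest in rat 2.

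Of 9 listed genes for bicarbonate supply, ATP and sirtuins of the mitochondrial steps, 8 reached 1 FPKM. Of these 8, 7 were lowest in rat 3, as deposited and after median ratio scaling, where 27.9% and 34.8% of all rows of at least 10 FPKM were. For Sirt5, among the 7, rat 3 was lowest as deposited by only 26.82 against 26.87 FPKM in rat 1. Car3, a cytosolic carbonic anhydrase, was at 204, 96.1 and 62.8 FPKM and Car14 at 75.3, 92.5 and 59.9. Ak3, an adenylate kinase isozyme of mitochondria, was almost level at 64.7, 66.0 and 65.5. Car5a, the mitochondrial carbonic anhydrase that supplies bicarbonate to Cps1, was at 44.99, 50.9 and 36.8 FPKM, and Sirt5, a mitochondrial deacylase known to act on Cps1, at 26.9, 30.4 and 26.8; these 2 were named after their values were seen.

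Among 20 transport genes, 13 reached 1 FPKM and 4 reached 100, with no common order. As deposited, 4 of 13 were lowest in rat 3 and 5 in rat 2, where 27.9% and 23.5% of all rows of at least 10 FPKM were. The amino acid transporters Slc38a4 (694, 776 and 689 FPKM) and Slc38a3 (379, 380 and 500), which carries glutamine, were the highest, followed by the cationic amino acid transporter Slc7a2 (135, 131 and 135). Slc38a2 was at 37.5, 14.1 and 33.7 FPKM, Slc1a4 at 4.08, 3.22 and 2.02, and the ammonium transporter Rhbg at 2.67, 1.16 and 0.789. The urea transporter Slc14a2 was listed at 0. Of 22 genes of arginine, ornithine and polyamine use, 19 had a row and 14 reached 1 FPKM. Gamt, of creatine synthesis, was highest at 320, 447 and 304 FPKM, then Oaz1, the antizyme of ornithine decarboxylase, at 234, 288 and 271, and Prodh, proline dehydrogenase, at 168, 160 and 146. Ddah1, which breaks down methylated arginine, was at 44.6, 47.8 and 13.7 FPKM, and Sms, spermine synthase, at 1.81, 2.42 and 1.15, both lowest in rat 3. Of the 14 genes, 4 were lowest in rat 3 as deposited, near the 27.9% of all rows of at least 10 FPKM.

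Of 18 listed regulators 16 had a row and reached 1 FPKM, and none varied 2-fold. Hnf4a was at 136, 120 and 116 FPKM, Cebpa at 66.2, 96.1 and 74.8 and Atf4 at 80.5, 70.1 and 84.9. As deposited, the order of the Cebpa values, rat 2 above rat 3 above rat 1, was that of Arg1, Nags and Glud1 and not of the other 6 genes. For Glud1 this order rested on 441 FPKM in rat 3 against 439 in rat 1. After median ratio scaling rat 3 was the lowest for Glud1, at 437 against 459 in rat 1. An order of 3 libraries is easily shared, and a link of any regulator to these genes was not tested.

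Zonation markers differed in which rat was highest. Of the periportal markers, 9 of 10 reached 1 FPKM, 5 of them (Gls2 included) highest and 3 lowest in rat 2 as deposited, where 49.3% of all rows of at least 10 FPKM were highest and 23.5% lowest. Sds, serine dehydratase, was at 461, 618 and 320 FPKM. The gluconeogenic genes Pck1 (817, 451 and 1139 FPKM) and G6pc (540, 249 and 437) were lowest in rat 2. Of 12 perivenous markers 11 had a row and 10 reached 1 FPKM, of which 4 were highest in rat 2, so both counts are near those over all rows. The levels of Cyp2e1 (2988, 3318 and 3734), Cyp1a2 (310, 388 and 400) and Cyp27a1 (129, 145 and 138) varied by at most 1.29-fold. Whether they share reads with other genes of the P450 family was not tested. Glul, the defining perivenous gene of this pathway, had no rat row to use.

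Between the species, only GLUD1 could be compared, since GLUL lacked a rat row and the 8 other symbols lacked a naked mole rat row here. GLUD1 was listed at 0 in each naked mole rat library, against 439, 576 and 441 FPKM in the rats, and the libraries did not overlap. In the limma fit over 288 shared symbols it was called higher in rat (limma adjusted p = 1.02e-09; higher in 3 of 3 rats), as were 41.0% of the symbols tested. No fold is given against a species at 0. The naked mole rat row spanned 102726 bp (scaffold385, 22550 to 125276) and the rat row 33537 bp, and it overlapped the ZMAT1 row (71071 to 401629), listed at 0, 0.0350 and 0.0178 FPKM. Values of 0 were frequent in these tables: 241 of 734 naked mole rat rows (32.8%) were at 0 in all libraries. Among 388 shared symbols, 34 (8.76%) were at 0 in all naked mole rat libraries while at 1 FPKM or more in every rat. Of these 34, 4 were at 100 or more in every rat. Species cannot be told apart from genome, gene model and alignment.

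GLUL had a pair of rows in naked mole rat, both above the median row mean of 0.449 FPKM in these 734-row tables. The shorter row was only just above it, at a mean of 0.465 FPKM. The longer, 272374 bp on scaffold13673 (284602 to 556976), was at 2.34, 1.60 and 4.37 FPKM, or 2.77 ± 1.43 (SD, n = 3), and overlapped the row of C10orf10, which was at 13.4, 13.4 and 14.6. The shorter, 1073 bp on scaffold135053 (404 to 1477), was at 0.736, 0.576 and 0.0834 FPKM. The third library was highest on the longer row and lowest on the shorter. Of the related genes, naked mole rat rows were found for Gcsh, listed at 0 in all 3 libraries, Odc1, at 0, 0.208 and 0 on a row of 444 bp, and Cyp1a2, at 1795, 1995 and 2953 FPKM.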

How the data were processed

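Liver polyadenylated RNA of 3 rat and 3 naked mole rat libraries was used, each after 8% oxygen for 8 hours. The authors deposited 1 table per library with FPKM values, per the file headers, which are those of a Cufflinks gene table. Tools listed in the submitters' processing notes are TopHat2 2.0.9, Bowtie2 2.1.0, Picard 1.137 and Cufflinks 2.1.1; which genome builds and gene annotations were used is not stated there.

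Rows were matched by symbol without regard to case, and HIDATA values (albumin in rats 1 and 2) were treated as missing. Levels are FPKM as deposited. Low values pile up at a common step, which puts rat 1 at 1.05 times the depth of rat 2 and at 0.983 times the depth of rat 3. Absolute depth stays unknown, so values have no counting interval. The rats were described without a test, because they form 1 group. For species, 388 shared symbols (rows of a symbol summed) were scaled by the median ratio over symbols above 0 in all libraries, and those reaching 1 in 3 or more libraries (2 where a library was left out) were tested on log2(scaled FPKM + 1) by limma 3.58.1, run under R 4.3.3, with its intensity trend. A call needed a log2 difference of 1 or more and a Benjamini-Hochberg adjusted p below 0.05. The limma step was tested on simulated data. The FPKM of a gene with near-identical copies is uncertain, since the copies can split reads.

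All 10 members, the 3 highest genes of each related list, those varying at least 2-fold and those with naked mole rat rows were named, except some related genes that are not reported here. Members and lists were chosen with earlier results of these data known. Protein sequences and comparisons of them were not used here. Alternatives were scaling, pseudocount, filter, trend, rows per symbol, span, a replicate block and leaving out each library.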

Additional observations from a re-analysis of the deposited data

Results flagged for a closer look

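The GLUL rows of naked mole rat entered no comparison, because no rat row was used for this symbol. Both had values above 0 in each of the 3 libraries. Their means were 2.77 FPKM on the row of 272374 bp and 0.465 FPKM on the row of 1073 bp. The longer row overlapped that of C10orf10, and the shorter was at 0.0834 FPKM in the third library. The tables hold no counts, so these values have no detection limit beside them.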

How the results depend on the processing

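With 3 libraries per species and no counts, small differences between genes or rats cannot be resolved. GLUD1 stayed on the rat side of the threshold in every alternative run that tested it (limma adjusted p from 7.97e-10 to 4.40e-07). With 0 in each naked mole rat library these settings could not move the call, so they add no support to it. Limiting the fit to comparable spans, the setting that bears on the gene models, leaves GLUD1 out. Scaling each library to a common total over the shared symbols gave 169 calls toward naked mole rat and 108 toward rat, against 94 and 118, with a median log2 difference of 0.77 in place of -0.40; quantile normalization gave 110 and 101. Comparable spans alone gave 16 and 11 calls. Leaving out each library gave 94 to 104 calls toward naked mole rat and 117 to 124 toward rat. The same replicate number did not pair the libraries (r of -0.036, -0.086 and -0.043 between deviations), and with a replicate block the calls were 94 and 118 and the fitted GLUD1 difference -8.81, a value set by the pseudocount. The summed level of the 9 rat genes was 8487 FPKM as deposited, 7657 by midpoints of the bounds, and 8121 to 8763 with a library left out. Scaled to a larger common total without albumin it was 16020. That value is in another unit and is no rise in level, since the deposited totals without albumin were 527133 to 531399. The median SD was 0.13 with median ratio scaling and 0.10 to 0.18 with a library left out. Rat 2 was the highest library for 5 genes with median ratio scaling and for 9 with the others. Without rat 2, Asl stood above Glud1.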

Other observations

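The tables give each value with a lower and an upper confidence bound, and for the 9 rat genes 26 of 27 values lay above their own upper bound. This was general at such levels: 93.3% to 93.5% of rat values from 100 to 1000 FPKM lay above their bound, against 0.464% to 0.509% of those from 1 to 10. The ratio of the FPKM to the midpoint of its bounds differed between the genes, from 1.04 for Cps1 and 1.06 for Glud1 to 1.13 for Ass1 and Arg1 and 1.17 for Slc25a15. With midpoints in place of FPKM, an alternative chosen after seeing the data, the order of the 9 genes was the same and Gls2 was above Otc in 3 of 3 rats.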
